A study of Mus musculus with 141 samples.

Results

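Female subcutaneous fat pads that carried much mammary epithelium were compared with female pads that carried little of it, using Epcam, the gene of a cell surface adhesion protein of epithelia, to rank them. Of the 67 female and 74 male libraries of the series, 2 female ones were left out by mouse number, and the other 65 were ranked by the Epcam level in TPM, the share of transcripts after correction for gene length. The groups were chosen by this measured value: the 16 libraries with the highest Epcam are called the mammary-rich group and the 16 with the lowest the mammary-poor group, and 33 libraries lay between them. The series measured RNA of the inguinal fat depot in inbred strains of the Hybrid Mouse Diversity Panel, with 1 library per strain and sex. All animals, those of both groups included, were fed chow to 8 weeks of age and then a high-fat, high-sucrose diet for 8 weeks, and were fasted for 4 h before collection. Since each group holds 1 animal per strain, an effect of strain, of the reproductive state of the animal and of the piece of tissue taken cannot be told apart. In bulk RNA, fewer cells of a type and less RNA per cell cannot be told apart either.

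The inguinal fat pad of the female mouse houses the mammary gland, a tree of ducts that grows through the adipose tissue. The ducts have an inner layer of luminal cells, some of which sense oestrogen and progesterone and some of which are progenitors of the milk-secreting cells, and an outer layer of contractile basal cells. Hormone-sensing cells answer progesterone with secreted signals such as RANK ligand and WNT4 that act on their neighbours, and the amount of epithelium and its state shift with the oestrous cycle and pregnancy.

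The mammary-rich group, from lowest to highest Epcam, was CXB13/HiAJ, AXB13/PgnJ, BXD50/RwwJ, DBA/2J, BXH22/KccJ, BALB/cJ, CE/J, BTBR T<+> tf/J, BXD56/RwwJ, BXD45/RwwJ, NZB/BlNJ, I/LnJ, BXD71/RwwJ, SM/J, SWR/J and KK/HlJ. The mammary-poor group was BXD44/RwwJ, BXD24/TyJ-Cep290<rd16>/J, 129X1/SvJ, CXB11/HiAJ, BXD12/TyJ, AXB12/PgnJ, AXB19/PgnJ, BXD79/RwwJ, BXD40/TyJ, BXD21/TyJ, MA/MyJ, PL/J, BXD60/RwwJ, BXA2/PgnJ, BXD74/RwwJ and LP/J. BXD recombinant inbred strains made up 4 libraries of the first and 8 of the second. Epcam (ENSMUSG00000045394, chromosome 17, 87635979 to 87651129 of the mouse build GRCm38) ran from 151.0 to 352 TPM with a median of 211 in the rich group and from 16.8 to 63.6 TPM with a median of 43.8 in the poor group. Just inside the limits stood CXB13/HiAJ at 151.0 TPM and LP/J at 63.6 TPM, and just outside them BXH8/TyJ at 146 TPM and BXD14/TyJ at 64.4 TPM. These values chose the groups and were not tested, and a gene that follows Epcam from library to library differs between the groups by this choice.

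**Figure D1:**
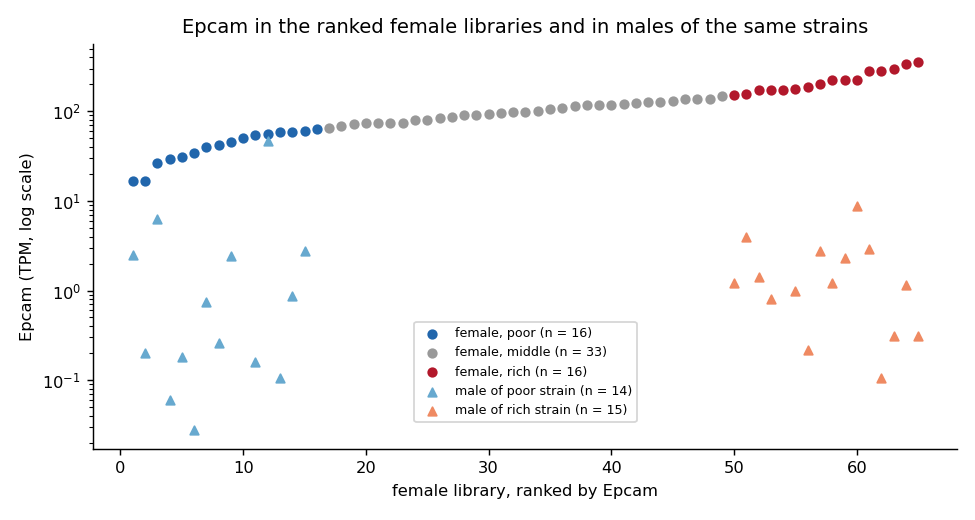
Epcam level (TPM, log axis) of the 65 ranked female libraries in order, with males of 15 rich and 14 poor strains as triangles. Males of the other strains are not drawn. The poor group ends at 63.6 TPM, the rich group starts at 151.0 TPM, and 72 of the 74 male libraries of the series lie below the lowest ranked female.

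The 74 libraries labelled male had a median Epcam level of 1.18 TPM. Of these, 2 lay above the lowest ranked female, PL/J at 46.4 TPM and NZW/LacJ at 79.3 TPM. The NZW/LacJ library labelled male held 9.36 CPM from Y-linked genes against 164 to 581 in the others labelled male. BXD34/TyJ and BXD69/RwwJ, the 2 libraries labelled female and left out, held 794 and 372 CPM against 5.66 to 35.7 in the ranked females. For the NZW/LacJ library labelled male and those left out, the sex label and the Y-linked level do not match. Total counts ran from 2.53e+07 to 3.27e+07 in the rich group and from 2.69e+07 to 3.58e+07 in the poor group (means 2.91e+07 and 3.09e+07, adjusted permutation p = 0.086, over 4 library properties). Genes at 1 TPM or more numbered 14746 ± 498 (SD, n = 16) in the rich and 14049 ± 597 (SD, n = 16) in the poor group (adjusted permutation p = 0.0074), while the share of counts from mitochondrially encoded genes was 9.74% ± 3.28 and 10.1% ± 4.45 (adjusted permutation p = 0.78). Mouse numbers averaged 1177 and 1015 (adjusted permutation p = 0.14). The poor group held 2 libraries that stood apart. AXB12/PgnJ had a summed macrophage marker level of 6009 TPM where no other poor library passed 1026 TPM, and BXD79/RwwJ a summed skeletal muscle marker level of 16592 TPM. Without both, 3043 genes (18.3%) were higher and 3239 (19.5%) lower among 16650 genes tested, and results are given without them where this changes a call.

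Over all genes, 2218 of 16493 genes tested (13.4%) were higher and 2821 (17.1%) lower in the rich group, 30.6% in either direction, by edgeR's quasi-likelihood test on counts with Benjamini-Hochberg adjusted p under 0.05. Each list of epithelial genes held genes that were higher, and the lower genes included adipocyte genes and subunits of respiratory complex I. In this fit, the count called in each list below stands beside these shares, 13.4% higher and 17.1% lower. The split of calls depended on the scaling. With the trimmed mean of M values (TMM) the higher genes were 44% of the calls and the median log2 fold change of all genes was -0.05, whereas with library totals they were 87.6% of the calls (4188 higher, 25.4%, and 595 lower, 3.61%) and the median was 0.15. All 2218 higher genes were also called higher with library totals, and 595 of the 2821 lower genes were also called lower. In TMM-scaled CPM, 150 genes (0.909%) had every rich library above every poor library, and 0 genes had every rich library below every poor one.

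Structural genes of luminal cells were higher in the rich group for 9 of 9 listed genes, with a median log2 fold change of 1.80 against -0.05 over all genes. Krt8, a keratin of simple epithelia, ran from 76.4 to 227 TPM (median 143) in the rich group and from 10.9 to 74.5 TPM (median 32.6) in the poor group. The groups did not overlap, and the log2 fold change was 1.80 ± 0.22 (SE, adjusted p = 1.4e-07 by edgeR). Cldn7, a claudin of epithelial tight junctions (chromosome 11, 69964779 to 69967885), ran from 14.6 to 66.4 TPM (median 28.7) and from 0.990 to 8.71 TPM (median 5.34), again without overlap, with a log2 fold change of 2.40 ± 0.23 (adjusted p = 2.3e-09 by edgeR). The E-cadherin gene Cdh1, whose product joins epithelial cells, was at 31.8 to 107.1 TPM in the rich and 3.58 to 22.4 TPM in the poor group (log2 fold change 2.03). Its ranges were also separate. Muc1, a mucin of the apical membrane, overlapped between the groups, with 13 of 16 rich libraries above the highest poor one and a log2 fold change of 2.26. The other keratins and claudins of the list (Krt18, Krt19, Krt7, Cldn3 and Cldn4) had log2 fold changes of 1.34 to 2.16.

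The epithelial program list, regulators and enzymes that epithelia of many organs share, had 15 of 15 genes higher, beside 13.4% of all genes. Its median log2 fold change was 2.00. In 8 of these genes every rich library lay above every poor one, beside 0.909% of all genes in TMM-scaled CPM. Grhl2, a grainyhead transcription factor of epithelial identity, ran from 6.67 to 16.9 TPM (median 10.2) in the rich group and from 0.921 to 4.53 TPM (median 2.24) in the poor group, with a log2 fold change of 2.03 ± 0.19 (adjusted p = 1.9e-09 by edgeR). Esrp1, a splicing regulator of epithelial isoforms, ran from 14.7 to 56.6 TPM and from 1.25 to 7.10 TPM, and its log2 fold change was 2.46. Neither gene overlapped between the groups. Ehf, an ETS factor of glandular epithelia, had the widest range of the list, 9.07 to 157 TPM against 1.08 to 11.3 TPM, and the largest log2 fold change, 3.21. The serine protease genes St14 and Prss8 and their inhibitor Spint1 had log2 fold changes of 2.08, 2.26 and 1.83. Rab25, a small GTPase of epithelial vesicle recycling (chromosome 3, 88542029 to 88548300), was at 10.2 to 27.3 TPM in the rich and 1.08 to 6.83 TPM in the poor group, a log2 fold change of 2.13 without overlap.

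RefSeq promoter windows of GRCm38.p6, 250 bases before to 50 bases after each transcript start, were searched on both strands for the grainyhead core ACCGGTT, for the STAT5 motif TTCNNNGAA, bound by the factor that prolactin activates, and for the oestrogen response element. The STAT5 motif was found in 1 of 8 windows of 7 luminal genes and in 1 of 9 windows of 7 epithelial program genes, against 2726 of all 32851 windows (8.30%). The grainyhead core (334 windows, 1.02%) and the oestrogen response element (23 windows, 0.0700%) were in 0 windows of both lists. The 2 windows with a match are shown because they belong to genes that separated the groups completely, with the match in capitals. They lie at chr11:69965171-69965470 on the plus strand for Cldn7 and at chr3:88548230-88548529 on the minus strand for Rab25. Cldn7 has another window, chr11:69964529-69964828, at the gene start given above, and it held no match. The remaining genes of both lists had no window to search.
Cldn7: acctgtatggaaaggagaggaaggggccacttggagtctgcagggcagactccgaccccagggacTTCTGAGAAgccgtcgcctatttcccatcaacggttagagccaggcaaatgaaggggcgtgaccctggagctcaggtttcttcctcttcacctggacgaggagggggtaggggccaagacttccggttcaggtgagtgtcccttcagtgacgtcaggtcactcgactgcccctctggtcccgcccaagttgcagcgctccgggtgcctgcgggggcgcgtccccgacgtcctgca
Rab25: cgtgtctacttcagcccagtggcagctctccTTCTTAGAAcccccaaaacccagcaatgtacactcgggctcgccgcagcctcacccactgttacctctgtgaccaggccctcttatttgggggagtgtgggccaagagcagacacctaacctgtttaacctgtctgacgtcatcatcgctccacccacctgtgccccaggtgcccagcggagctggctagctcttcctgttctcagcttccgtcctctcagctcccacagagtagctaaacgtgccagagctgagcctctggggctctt
A match describes the letters of the window and not a bound site, and the share of windows with one says nothing of the factor.

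**Figure D2:**
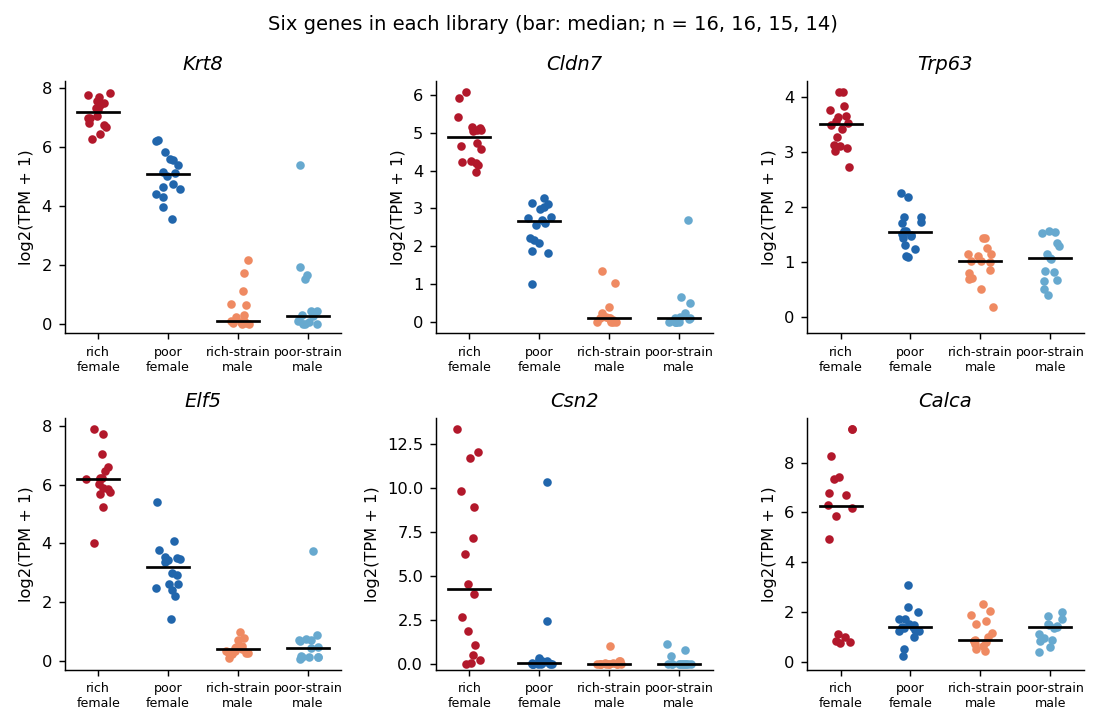
Level of 6 genes, log2(TPM + 1), in the rich (n = 16) and poor (n = 16) female libraries and in males of the rich (n = 15) and poor (n = 14) strains, 1 point per library with a bar at the median. Krt8, Cldn7 and Trp63 do not overlap between the female groups, and Csn2 and Calca spread widely within the rich group.

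Hormone-sensing luminal genes were higher for 7 of 8, with a median log2 fold change of 1.54, and the exception was the oestrogen receptor gene itself. Esr1 ran from 8.17 to 25.4 TPM (median 14.5) in the rich and from 5.94 to 25.4 TPM (median 11.5) in the poor group, and its log2 fold change of 0.15 ± 0.18 did not pass the test (adjusted p = 0.57 by edgeR). Males of the same strains had median Esr1 levels of 6.78 and 8.39 TPM. The progesterone receptor gene Pgr ran from 2.26 to 26.6 TPM and from 0.226 to 3.58 TPM, with 11 of 16 rich libraries above the highest poor one and a log2 fold change of 1.62. Prlr, the prolactin receptor, Foxa1, the pioneer factor of luminal cells, and Cited1, a transcriptional coregulator, had log2 fold changes of 1.05, 1.35 and 1.99. Areg, the EGF receptor ligand that mediates oestrogen's effect on ducts, spanned 0.336 to 159 TPM within the rich group and 0.0521 to 48.8 TPM in the poor one. Its log2 fold change of 2.27 ± 0.74 passed narrowly (adjusted p = 0.020 by edgeR).

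Both listed paracrine signals of these cells were higher. Wnt4 ran from 2.85 to 14.9 TPM against 0.871 to 4.26 TPM (log2 fold change 1.46). Tnfsf11, the gene of RANK ligand, ran from 0.0563 to 130 TPM with a median of 7.41 in the rich group and from 0 to 4.52 TPM in the poor group, and 8 of 16 rich libraries lay above the highest poor one. BXD71/RwwJ was highest, followed by NZB/BlNJ at 49.3 TPM, and the log2 fold change of 4.01 ± 0.89 (adjusted p = 0.0012 by edgeR) was 3.34 without BXD71/RwwJ. Its receptor gene Tnfrsf11a had a log2 fold change of 0.81. Among the males of these strains Tnfsf11 reached 6.50 TPM, in I/LnJ, where Krt8 was at 0.194 TPM. Which cells held the Tnfsf11 RNA was not tested.

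Calca, which encodes calcitonin and the calcitonin gene-related peptide, had the largest log2 fold change among the genes named by size, 5.82 ± 0.84 (adjusted p = 3.4e-06 by edgeR), and divided the rich group. In 5 libraries, CXB13/HiAJ, AXB13/PgnJ, BXH22/KccJ, BALB/cJ and CE/J, it lay between 0.686 and 1.19 TPM, within the poor group's 0.179 to 7.65 TPM. In the other 11 it lay between 29.9 TPM (I/LnJ) and 647 TPM (NZB/BlNJ and BXD71/RwwJ), all above the highest poor library. Among the 33 libraries between the groups, BXD27/TyJ reached 233 TPM and BXD43/RwwJ 195 TPM. Other secreted or surface genes with large changes were Rspo1, an enhancer of WNT signalling (0.655 to 69.4 TPM against 0.303 to 4.56 TPM, log2 fold change 4.08), Gjb2, a gap junction connexin (1.40 to 118.1 TPM against 0.185 to 9.21 TPM, 4.13), and the mucin gene Muc4 (0.230 to 16.2 TPM against 0.00417 to 0.898 TPM, 4.12). Il17b, a cytokine gene, was the one of these whose groups did not overlap, at 3.61 to 39 TPM against 0 to 2.05 TPM (log2 fold change 3.79).

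All 5 luminal progenitor genes were higher, with a median log2 fold change of 1.55. Elf5, the ETS factor of the alveolar lineage, ran from 15.1 to 237 TPM (median 72.9) in the rich group and from 1.68 to 41.6 TPM (median 8.18) in the poor group. Only 2 of 16 rich libraries fell within the poor range, and the log2 fold change was 2.84 ± 0.34 (adjusted p = 1.5e-07 by edgeR). Lcn2, a siderophore-binding lipocalin, did not overlap (97.3 to 398 TPM against 11.1 to 85 TPM, log2 fold change 2.30). The receptor genes Kit and Cd14 had log2 fold changes of 1.55 and 1.36. Aldh1a3, a retinaldehyde dehydrogenase, was the weakest at 0.85 (adjusted p = 0.035 by edgeR), and its call was lost in 10 of the 32 fits that left out 1 library.

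Milk genes were the most uneven group. Of 11 listed genes 8 could be tested and 3 were higher, Csn3, Wfdc18 and Btn1a1, with a median log2 fold change of 2.47. Csn3, the kappa-casein gene, ran from 92.4 to 1340 TPM against 8.68 to 338 TPM (log2 fold change 2.49 ± 0.47, adjusted p = 0.00020 by edgeR), and 6 of 16 rich libraries were above every poor one. Csn2, the beta-casein gene, ran from 0.0145 TPM to 10038 TPM within the rich group. SWR/J was highest, with KK/HlJ at 4077 TPM, BXD56/RwwJ at 3270 TPM and SM/J at 887 TPM, whereas the median of the rich group was 18.8 TPM. In the poor group PL/J reached 1259 TPM and the next library, MA/MyJ, 4.44 TPM. The log2 fold change of Csn2 was 3.72 ± 1.72 with PL/J (adjusted p = 0.098 by edgeR) and 11.10 without it (adjusted p = 2.8e-05). Csn1s1 behaved alike, at 3.73 (adjusted p = 0.061 by edgeR) and 10.82 without PL/J (adjusted p = 1.2e-06), and without this library 6 milk genes were called higher, Lalba included. Glycam1 (adjusted p = 0.47 by edgeR) and Ltf (adjusted p = 0.30), whose products are also made outside milk-secreting cells, did not pass.

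Basal genes were higher for 9 of 10, with a median log2 fold change of 2.16, the highest median after that of the milk genes. Trp63, the p63 transcription factor of basal cells, ran from 5.63 to 16 TPM (median 10.3) in the rich group and from 1.13 to 3.73 TPM (median 1.89) in the poor group. The ranges were separate, and the log2 fold change of 2.17 ± 0.15 had an adjusted p of 9.6e-12 by edgeR. The basal keratin genes Krt5, Krt14, Krt15 and Krt17 had log2 fold changes of 2.50, 2.24, 3.90 and 2.52. The hemidesmosome and laminin genes Col17a1 and Lamb3, which anchor basal cells to the matrix, had 2.13 and 1.15, and Cdh3, P-cadherin, 2.16. Oxtr, the oxytocin receptor by which basal cells are made to contract, was the exception, at 20.8 to 147 TPM against 8.31 to 157 TPM and a log2 fold change of -0.20 ± 0.37 (adjusted p = 0.72 by edgeR). In males of the rich and poor strains the median Oxtr level was 9.97 and 27.5 TPM. Some genes of other lists that basal cells also use were higher too. Of 7 mural genes 3 were higher, beside 13.4% of all genes. They were Cnn1 (log2 fold change 1.98), Myh11 (0.97) and Acta2 (0.69, a call lost in 8 of 32 fits without 1 library). All are genes of the contractile apparatus, but Mylk, a contractile gene of the same list, was not among those called higher. Which cells held this RNA was not tested. The pericyte genes Rgs5 and Pdgfrb had log2 fold changes of -0.46 (adjusted p = 0.050 by edgeR, which did not pass) and -0.19.

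Single genes stood apart from their lists. Of 4 Schwann cell genes only Sox10 was higher, at 9.0 to 53.1 TPM (median 22.5) against 1.65 to 9.02 TPM (median 3.35), with a log2 fold change of 2.49 ± 0.22 (adjusted p = 1.5e-09 by edgeR). The myelin gene Mbp had a log2 fold change of -0.19 and did not pass. Sox10 is known from neural crest and also from mammary epithelium. Of 4 lymphatic genes Pdpn was higher (0.74, adjusted p = 0.0026 by edgeR) and Flt4 lower (-0.52, adjusted p = 0.0058), and the call on Flt4 was lost with library totals. The summed skin and hair follicle list ran from 7.01 to 30.5 TPM (median 13.9) in the rich group and from 5.99 to 110 TPM (median 13.2) in the poor group. Its genes other than Krt1 and Flg are not reported here by name. Krt1 and Flg, which mark differentiated epidermis, were at or under 0.226 TPM in all libraries of both groups but LP/J of the poor group, which had 22.1 and 29.4 TPM, and the skin list had 0 of 3 tested genes called.

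**Figure D3:**
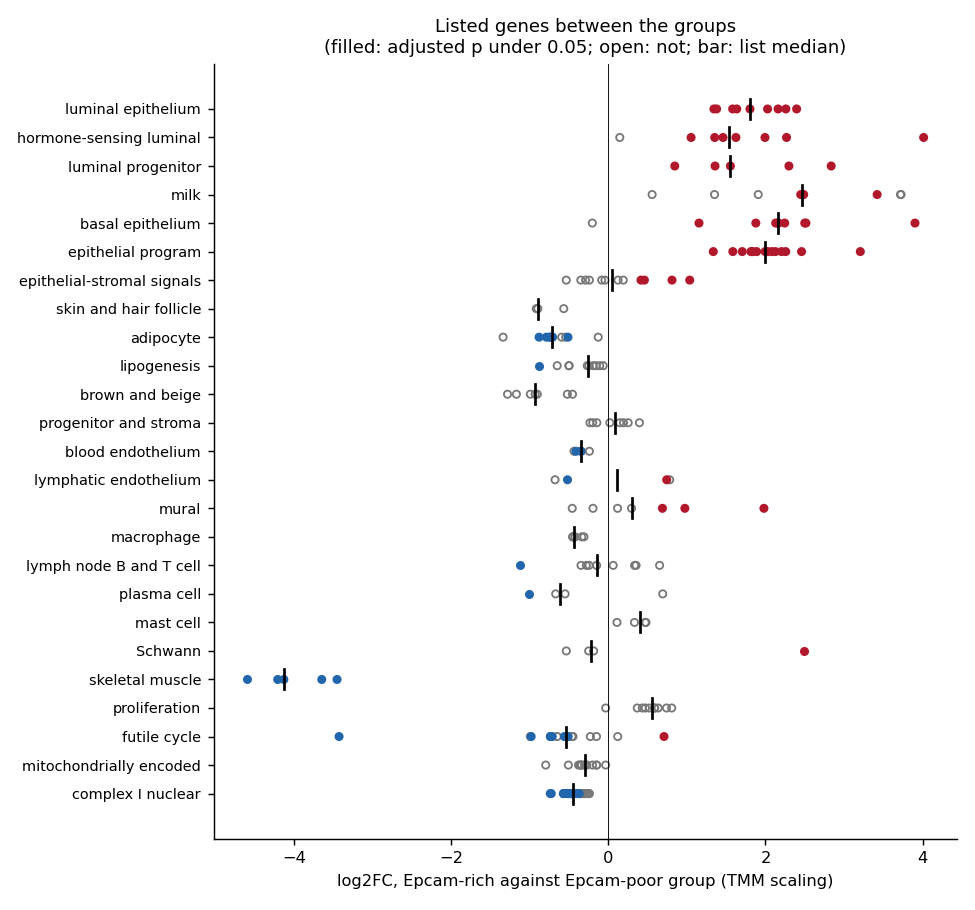
Log2 fold change of each listed gene, rich against poor group, by list, with called genes filled (edgeR, adjusted p under 0.05) and a bar at each list's median. The epithelial lists lie to the right with medians from 1.54 to 2.47, and the adipocyte and complex I lists to the left at -0.71 and -0.45.

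Of 12 listed genes of signals exchanged between epithelium and stroma 4 were higher, the receptor genes Fgfr2 (log2 fold change 1.04), Met (0.42), Igf1r (0.46) and Tnfrsf11a. Over all genes 13.4% were higher. Fgfr2, the receptor for stromal FGF7 and FGF10, ran from 40.9 to 171 TPM against 15.9 to 88.2 TPM. Its ligand genes Fgf7 and Fgf10 had log2 fold changes of -0.29 and -0.35 and did not pass, nor did Hgf (0.19), Igf1 (-0.24), Csf1 (-0.08), Wnt5a (-0.04), Btc (-0.54) or the receptor gene Egfr (0.12). Whether receptors and ligands differ was not tested. The list median of 0.04 lay next to that of all genes.

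Adipocyte genes were lower for 8 of 12, beside 17.1% of all genes, with a median log2 fold change of -0.71. Plin1, the coat protein of the lipid droplet, ran from 242 to 888 TPM (median 740) in the rich group and from 153 to 1626 TPM (median 862) in the poor group, with a log2 fold change of -0.71 ± 0.22 (adjusted p = 0.014 by edgeR). Pparg, the master regulator of adipocytes, ran from 63.9 to 155 TPM against 27.8 to 266 TPM (-0.71 ± 0.19, adjusted p = 0.0054). The groups overlapped for every adipocyte gene. Fabp4, Lipe and Cidec had log2 fold changes of -0.75, -0.71 and -0.88. Plin4 (-0.75), Retn (-0.79) and Pnpla2 (-0.51) lost their calls in 9, 9 and 21 of 32 fits that left out 1 library. Adipoq (-0.54, adjusted p = 0.054 by edgeR) and Lep (-1.34, adjusted p = 0.053) did not pass. With library totals 4 adipocyte genes were called lower, Plin1, Cidec, Lipe and Pparg, beside 3.61% of all genes, with a list median of -0.51. The lowest adipocyte sum of all was that of AXB12/PgnJ in the poor group, 10209 TPM. Without AXB12/PgnJ and BXD79/RwwJ 11 of 12 adipocyte genes were called lower, beside 19.5% of all genes. Of 10 lipogenesis genes only Scd1 was lower (-0.88, a call lost in 17 of 32 fits and with library totals), and Fasn had -0.19 (adjusted p = 0.79 by edgeR).

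Nuclear genes of respiratory complex I were lower for 25 of 36, beside 17.1% of all genes. Their median log2 fold change was -0.45, and all 36 had a negative value. Ndufa12, an accessory subunit, had medians of 127.9 TPM in the rich and 178 TPM in the poor group and a log2 fold change of -0.73 ± 0.22 (adjusted p = 0.014 by edgeR). Ndufb4 had medians of 54.1 and 78.5 TPM and a log2 fold change of -0.56 ± 0.15 (adjusted p = 0.0057). With library totals the median was -0.23 and 3 genes were called, Ndufa12, Ndufa2 and Ndufb4, beside 3.61% of all genes called lower. With strain family (BXD or other) as a covariate 13 were called, beside 2147 of all 16493 genes called lower. Of the 13 mitochondrially encoded genes 0 passed the test, with a median of -0.30. The summed complex I level ran from 4701 to 7517 TPM (median 5790) and from 3934 to 8273 TPM (median 6734), so the groups overlapped almost throughout.

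Over all genes 17.1% were lower and 13.4% higher in the rich group. Of 16 tested genes of ATP-consuming cycles, 6 were lower (Ryr1, Gamt, Lipe, Mgll, Pnpla2 and Slc25a4) and 1 was higher. The higher one was Alpl, the tissue-nonspecific alkaline phosphatase, at 6.56 to 26.8 TPM (median 14.6) against 3.72 to 13.1 TPM (median 7.44), a log2 fold change of 0.71 ± 0.18 (adjusted p = 0.0030 by edgeR). In males of the rich and poor strains its medians were 4.57 and 4.46 TPM. Gamt, which makes creatine, had -0.98, and Ryr1, a calcium channel gene of skeletal muscle, was lower through BXD79/RwwJ alone (-3.43, and -0.09 without it). The brown and beige list had 0 of 7 genes called, and Ucp1 ran from 0.292 to 542 TPM against 0.0706 to 1250 TPM. When libraries were ranked by Krt8, Krt18, Cldn3 and Cldn7 in place of Epcam, 5 of these 7 genes were called lower, Ucp1 included, beside 15.2% of all 16635 genes in that fit.

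Calls in the vascular, immune and stromal lists stand beside 30.6% of all genes called in either direction. Progenitor and stroma genes gave 0 calls of 8 (median 0.08), macrophage genes 0 of 6 (-0.44, and -0.18 without AXB12/PgnJ and BXD79/RwwJ), and mast cell genes 0 of 4 (0.40). Of 5 blood endothelial genes Pecam1 (-0.35) and Flt1 (-0.41) were lower, and both calls were lost with library totals. Of 9 lymph node genes Ighm alone was called lower (-1.13) and lost its call without AXB12/PgnJ (-0.65), where it reached 4555 TPM. Of 4 plasma cell genes Tnfrsf17 was lower (-1.01, adjusted p = 0.0049 by edgeR). Proliferation genes gave 0 calls of 10 with a median of 0.56. Without AXB12/PgnJ and BXD79/RwwJ 2 of them were called higher, Ccnb1 and Mcm2, beside 18.3% of all genes. With library totals and without both libraries the number was 8 of 10. In that fit 5534 of all 16650 genes were called higher, with a median log2 fold change of 0.21 over all genes.

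**Figure D4:**
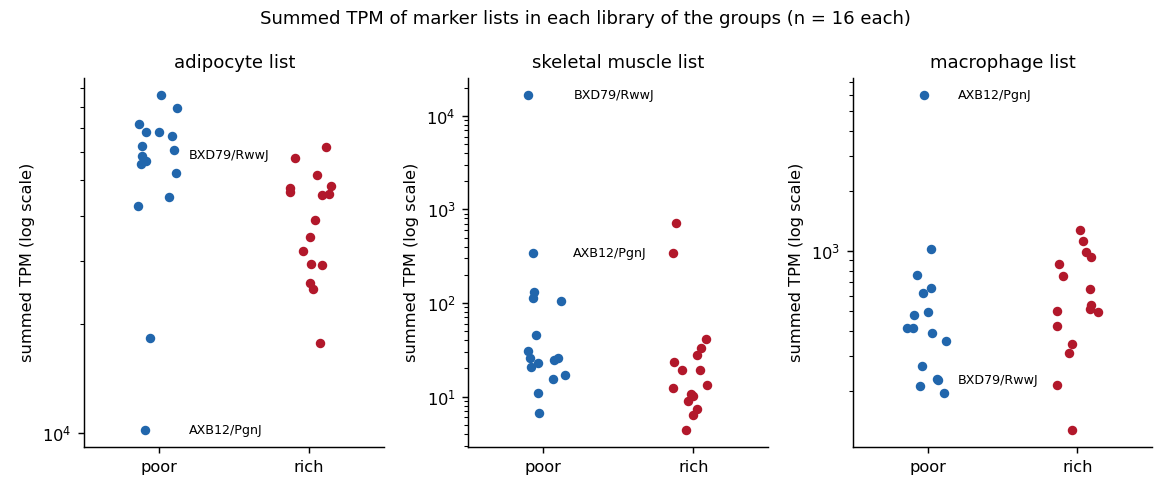
Summed marker level (TPM, log axis) of the adipocyte, skeletal muscle and macrophage lists in each library of the poor and rich groups. AXB12/PgnJ has the lowest adipocyte sum (10209 TPM) and the highest macrophage sum (6009 TPM), and BXD79/RwwJ the highest muscle sum (16592 TPM).

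Among the genes named by size, those lowest in the rich group were skeletal muscle genes, and 1 library carried them. All 5 tested genes of the muscle list were called lower (median -4.13), and 0 were without AXB12/PgnJ and BXD79/RwwJ (median 1.29). Ckm, muscle creatine kinase, was at 2041 TPM in BXD79/RwwJ, at 102.8 TPM in I/LnJ of the rich group and had medians of 0.336 and 0.274 TPM in the groups. The log2 fold changes of Actn3, Tnnt3, Ckm, Tnnc2, Tnni2, Mybpc2, Pygm, Mylpf and Ttn lay between -4.86 and -3.51, and all 9 calls were lost without BXD79/RwwJ. All 9 were positive without both this library and AXB12/PgnJ, 0.52 (Pygm) to 2.09 (Ckm). The highest muscle sums that then remained were in the rich group, 710 TPM in I/LnJ and 344 TPM in BXD56/RwwJ. Outside I/LnJ and BXD56/RwwJ, Ckm was at most at 0.607 TPM in the rich group. A fit that also left out these rich libraries was not run. The tenth, Fpr2, a formyl peptide receptor of myeloid cells, was at 215 TPM in AXB12/PgnJ and at most at 6.48 TPM elsewhere in the groups, and went from -3.50 to 0.35 without that library. 1 or 2 libraries carried 3 of the 10 largest increases as well. Rpl17-ps5 was at 848 TPM in I/LnJ and at 860 TPM in the male of that strain, and its log2 fold change fell from 4.69 to 0.76 without I/LnJ. Vcp-rs was at 193 TPM in KK/HlJ and 146 TPM in CE/J, with 199 and 173 TPM in their males, and stayed at or under 3.71 TPM in the rest of the groups. Myh8, a developmental myosin, reached 42.6 TPM in I/LnJ but was at 0.0784 TPM in the male of that strain. Its log2 fold change was 4.02, and -0.25 without the I/LnJ library of the rich group. Rpl17-ps5 and Vcp-rs are near-identical copies of other genes, so their counts are uncertain.

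The 33 libraries between the groups entered neither of them, but the same Epcam values placed them there, so what follows is no independent repeat of the comparison. In these libraries each gene's slope on log2(Epcam TPM + 1) was fitted, and 67 of 15349 genes (0.437%) had a positive slope past the threshold and 26 (0.169%) a negative one, 0.606% in all. Of the genes higher in the rich group 1902 of 2095 tested (90.8%) had a positive slope, of those lower 210 of 2762 (7.60%), and of all genes 50.5%. Positive slopes that passed included Cldn3 (0.92), Prss8 (1.14), Rab25 (0.96), Spint1 (0.96), St14 (0.71) and Esrp1 (0.75), each in log2 units per log2 unit of Epcam. Median slopes were 0.73 for the luminal, 0.71 for the epithelial program, -0.44 for the adipocyte and -0.44 for the complex I list, where all 36 slopes were negative and 0 passed. Kit had a slope of 0.16 (adjusted p = 0.65 by edgeR), Trp63 one of 0.32 (adjusted p = 0.50) and Muc1 one next to 0, and none of the 3 passed. The largest slopes belonged to Ftl1-ps1 (6.48), Vcp-rs (5.59), AC133509.1 (4.35), Aass (4.27) and Zfp990 (4.23), at high level in few strains. Ftl1-ps1 was at 1032 TPM in NZW/LacJ and at 707 TPM in SJL/J, Aass at 91.2 TPM in SJL/J, and AC133509.1 at 93.6 TPM in NZW/LacJ. The most negative were Otop1 (-2.22), Trim67 (-1.97), Gk (-1.92), Gnao1 (-1.40) and Hcn2 (-1.35).

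**Figure D5:**
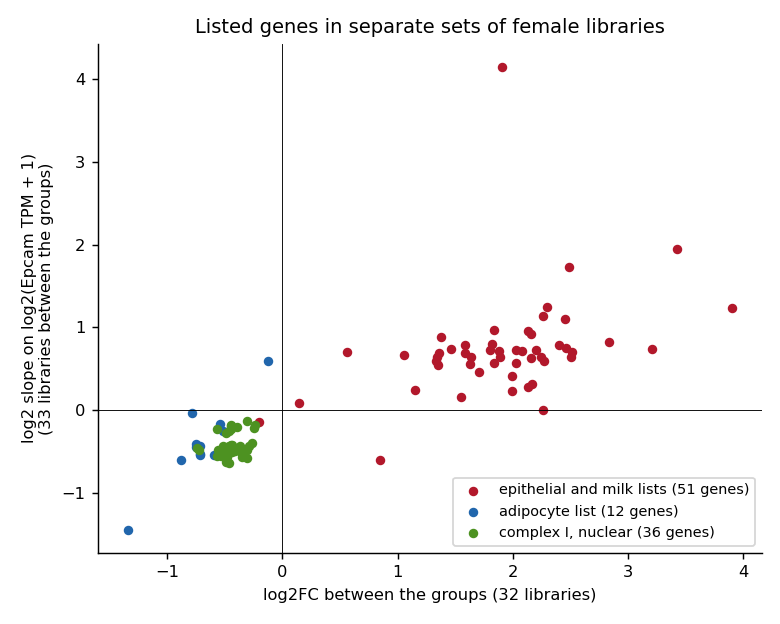
Log2 fold change between the groups (x axis) against the slope on Epcam in the 33 libraries between them (y axis, log2 units per log2 unit of Epcam TPM) for 51 epithelial and milk genes, 12 adipocyte genes and 36 complex I genes. Most epithelial genes have positive values on both axes, and the 36 complex I genes are negative on both.

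By Spearman's rho over these 33 libraries and among 15169 genes, the genes whose level was most like that of Epcam were Prss8 (0.914), Kcnk1 (0.897), Cldn3 (0.884), Marveld3 (0.865), Tnk1 (0.863), Spint2 (0.858), Ap1m2 (0.856), Tmc4 (0.848), Tfap2a (0.848) and Grhl2 (0.842). These are descriptions, and the points share the scaling of TPM. Marveld3, a tight junction protein gene, also did not overlap between the groups (6.65 to 23.3 TPM against 0.824 to 3.25 TPM).

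The males of these strains were not used in the ranking. Between 15 males of the rich strains and 14 of the poor strains, 0 of 15998 genes passed (edgeR), with 1995 at an unadjusted p under 0.05 and 8 higher and 14 lower by DESeq2. The median log2 fold change was -1.25 over the 4 luminal genes that could be tested, -0.33 over the epithelial program, -0.16 over the adipocyte and -0.07 over the complex I list. The male of PL/J, a poor strain, carried the epithelial values. Its summed luminal level was 286 TPM where no other of these males passed 36.5 TPM, and without it the medians turned positive, to 0.19 over the luminal list and 0.32 over the epithelial program, while those of the adipocyte and complex I lists were -0.18 and -0.08, and again 0 genes passed (edgeR, 2106 at an unadjusted p under 0.05). Krt8 had medians of 0.0658 and 0.221 TPM in the 2 groups of males, with the highest value, 41 TPM, in the male of PL/J. Grhl1 (2.99 and 3.79 TPM) and Lamb3 (8.55 and 8.39 TPM) were well above 0 in males.

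The difference of the contrast between females and males, fitted over 29 strains and 58 libraries with strain as a block, was positive past the threshold for 999 of 17543 genes (5.69%) and negative for 252 (1.44%), 7.13% in all. It was positive for 9 of 15 epithelial program genes, 6 of 10 basal genes, 6 of 10 milk genes, 4 of 5 luminal progenitor genes, 2 of 9 luminal genes and 2 of 8 hormone-sensing genes. The female side of this difference is the comparison of groups chosen by Epcam. A gene that follows Epcam in females leans to a positive value by this choice, so these calls are no independent result. Among the genes that passed were Trp63 (difference of log2 fold changes 2.54 ± 0.37, adjusted p = 2.8e-05 by edgeR), Grhl2 (2.74 ± 0.37, adjusted p = 1.0e-05) and Elf5 (3.44 ± 0.54, adjusted p = 7.6e-05). Krt8 (2.57 ± 1.14, adjusted p = 0.21 by edgeR) and Cldn7 (2.40 ± 1.11, adjusted p = 0.23) did not pass, with medians under 0.3 TPM in males and a wide error. Without the strain block 9 luminal, 6 hormone-sensing, 9 basal, 12 epithelial program and 2 milk genes were positive past the threshold, beside 4.94% of all genes, and Krt8 (4.61, adjusted p = 0.0028 by edgeR) and Cldn7 (4.03, adjusted p = 0.0045) were then among them. With the strain block again, none of the adipocyte genes passed, with Plin1 at -0.60 ± 0.31 (adjusted p = 0.30 by edgeR), and 0 of 36 complex I genes did.

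The contrast was also fitted within strain families. Within the BXD strains (4 rich against 8 poor) 5 of 9 luminal, 9 of 10 basal and 14 of 15 epithelial program genes were called higher, where 6.4% of all 16941 genes were, and among the other strains (12 against 8) 9, 9 and 15, where 6.27% of 17039 were. Adipocyte genes called lower were 2 of 12 within the BXD strains and 0 among the others, and complex I genes 0 of 36 in both, beside 1.92% and 1.48% of all genes called lower. Of all genes, 642 were called higher in both subsets (59.2% of those within the BXD strains and 60.1% of the others) and 26 lower in both (8.0% and 10.3%). Both subsets keep the groups chosen by Epcam. A gene that follows Epcam leans to the same direction in both by this choice, so the shared calls are no independent repeat. These subsets are small, and whether the share of calls differs between the lists was not tested.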

How the data were processed

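RNA of subcutaneous fat was sequenced from 141 mice with stranded mRNA libraries, and the authors quantified transcripts against mm10 with kallisto 0.46.1 (both per the submitters' processing notes). The deposited tables hold estimated counts per gene, which were rounded to whole numbers here, and TPM values, which the authors scaled to each library's total. Symbols came from GENCODE M21 (35935 of 36558 gene identifiers matched), and counts of near-identical copies are uncertain. Samples were grouped by the labels' sex and strain and, within females, by Epcam TPM. Libraries of 1 group are separate mice of different strains.

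Genes were filtered with filterByExpr and tested on counts with edgeR 4.0.16 (quasi-likelihood, TMM, R 4.3.3) at a Benjamini-Hochberg adjusted p under 0.05. Alternatives used DESeq2 1.42.0, limma 3.58.1 on log2(TPM + 1) or log2(TPM + 0.1), other scalings, filters, groupings and single libraries left out. Library properties were compared by two-sided permutation tests with 100000 resamples. The fits were tested on simulated data.

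The ranking gene and 25 gene lists were chosen with earlier results of these data known, and the list of ATP-consuming cycles follows the study's interest, so no list is independent evidence. Other genes named were the 10 largest changes in each direction between the groups and 5 in each other fit (mean of at least 1 CPM, no predicted gene names), and the 10 genes most like Epcam. Some listed genes count in their lists but are not reported here by name. Promoter windows are RefSeq, GRCm38.p6.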

Additional observations from a re-analysis of the deposited data

Results flagged for a closer look

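The difference between the female and the male contrast (rich against poor strains, strain as a block) was itself tested, and the following named genes passed. Its female side compares groups chosen by Epcam, so genes that follow Epcam lean to positive values by this choice. Values are differences of log2 fold changes, with positive ones meaning a larger rich-to-poor difference in females. Among luminal and hormone-sensing genes these were Cdh1 (2.49), Muc1 (2.85), Prlr (1.91) and Wnt4 (1.82). Among luminal progenitor genes they were Elf5 (3.44), Kit (1.61), Cd14 (1.38) and Lcn2 (3.28).

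Milk genes that passed were Csn1s1 (9.63), Csn1s2a (8.32), Csn2 (8.29), Wfdc18 (4.17), Btn1a1 (4.08) and Csn3 (3.42), and without PL/J the call on Btn1a1 was lost (3.76) and 5 of the 6 stayed called. Csn2 was at or under 1.27 TPM in all males of these strains, so its difference rests on male counts near the floor. The contrasts of Csn2 and Csn1s1 in females alone did not pass with PL/J included. Basal genes included Krt15 (5.10), Trp63 (2.54), Cdh3 (2.43), Col17a1 (2.27) and Lamb3 (1.46). Epithelial program genes were Esrp2 (2.98), Prss8 (2.97), Ehf (2.92), Rab25 (2.78), Grhl2 (2.74), Spint1 (2.26), St14 (2.03), Marveld2 (1.81) and Grhl1 (1.67).

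Of the signal list Fgfr2 (1.04), Met (0.79) and Igf1r (0.48) passed. Contractile genes were Cnn1 (1.99), Acta2 (1.14), Myh11 (0.93) and Mylk (0.59), and single genes of other lists were Sox10 (3.06), Alpl (0.90) and Pdpn (0.75). Genes named by size were Fat2 (6.14), Il17b (5.50), Calca (5.15), Muc4 (4.54), Gjb2 (4.31) and Rspo1 (3.50) on the positive side, and Cyp26b1 (-0.96), Kcne4 (-0.90), Hcn2 (-0.81), Ifit1bl2 (-0.76) and Bdkrb2 (-0.73) on the negative side.

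Outside the groups, the library labelled male NZW/LacJ had 79.3 TPM of Epcam, above the range of the poor female group, where the median of the males was 1.18 TPM.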

How the results depend on the processing

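The counts of higher and lower genes between the groups depended on scaling and on the libraries used. Leaving out 1 library at a time gave 2022 to 3103 higher and 2032 to 3417 lower genes. With library totals the counts were 4188 and 595, with totals and without AXB12/PgnJ and BXD79/RwwJ 5534 and 1109, within BXD strains 1084 and 325, and among the other strains 1069 and 252. By limma on log2(TPM + 0.1) 97 genes were lower and on log2(TPM + 1) about 1.0e+02. The slope on Epcam gave 212 positive and 239 negative genes with DESeq2, 164 and 61 without a filter, and 486 and 40 with library totals. Between males of rich and poor strains DESeq2 called 8 higher and 14 lower. For the difference between females and males, the strain block gave 999 positive and 252 negative genes, the fit with no replicate block 867 and 94, no filter 96 negative and library totals 61 negative. Results that changed direction were muscle and myeloid genes. With AXB12/PgnJ and BXD79/RwwJ set aside, the highest muscle sums were 710 TPM in I/LnJ and 344 TPM in BXD56/RwwJ, both of the rich group. Without AXB12/PgnJ and BXD79/RwwJ, and then also with library totals, the log2 fold change was 1.70 and 2.00 for Actn3, 2.09 and 2.36 for Ckm, 0.32 and 0.51 for Fpr2, 1.72 and 1.91 for Mybpc2, 1.21 and 1.44 for Mylpf, 0.52 and 0.71 for Pygm, 0.96 and 1.17 for Ryr1, 1.29 and 1.58 for Tnnc2, 1.42 and 1.69 for Tnni2, 1.67 and 1.96 for Tnnt3 and 1.78 and 2.04 for Ttn. Among non-BXD strains it was 0.14 for Ckm, 0.15 for Mylpf and 0.018 for Tnnc2, and within BXD strains 0.042 for Fpr2 and -0.60 for Myh8, which had -0.27 with DESeq2. Mybpc2 had 0.41 on log2(TPM + 0.1) and 0.70 with limma-voom, where Ttn had 0.071. The cause of these shifts was not tested beyond the samples or scaling each fit changes. No paired analysis was possible for the groups, the slope and the males because each strain gave 1 library per sex. NZW/LacJ was in no group, so the fit without it and PL/J equals that without PL/J, the male fits without NZW/LacJ were not run, and the fit without shallow libraries was not run because both groups hold none. Depth limits low genes such as Tnfsf11, which ran from 0 to 4.52 TPM in the poor group.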
